A study of Mus musculus with 12 samples.

Results

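Sc5d (ENSMUSG00000032018) and 7 other enzymes of cholesterol synthesis, Hmgcs1, Idi1, Fdft1, Sqle, Lss, Cyp51 and Dhcr7, were followed by gene symbol across 12 libraries of mouse Fallopian tube cells. These are 8 of the 35509 genes in the deposited table. Sc5d was chosen by its counts, which were higher in large than in small clones in 5 of 6 mice, so its difference between clone sizes is a description and carries no test. The other 7 were taken because they belong to the same pathway. A filter on low counts left 10848 genes for testing, among them 6 of the 8, while Cyp51 and Idi1 fell below it.

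The study compared clones of different size in the distal Fallopian tube of mice that were 4 weeks old and carried MADM RG and GR alleles on a mixed background, labelled as wild type and untreated. MADM (mosaic analysis with double markers) colours a dividing cell and its descendants by recombination between homologous chromosomes, so that a clone can be recognised in tissue. Each of 6 mice gave 1 library of large clones and 1 of small clones, each made from 200 pooled cells cut out by laser microdissection. A library averages over its pooled cells, and the number of clones behind it was not known here. All groups share genotype, age and lack of treatment. The sizes that divide large from small, and the promoter behind the recombinase, were not used here.

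Cholesterol is built from acetyl-CoA in the cytosol and endoplasmic reticulum: early enzymes make mevalonate and isoprenoids, squalene synthase and squalene epoxidase commit the chain to sterols, and a late series of enzymes turns lanosterol into cholesterol. The genes are classically switched on together by the transcription factor SREBP2 when membrane sterol falls, and they are switched off when sterol is plentiful. In the oviduct, as in other epithelia, cholesterol is a membrane constituent, and neighbouring steroid-making cells of the ovary use it as the precursor of hormones.

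The promoter windows of Sc5d and Hmgcs1, the 2 chosen enzymes with the highest median level per length, are shown because SREBP2 acts through a sterol regulatory element. They are from RefSeq on GRCm38.p6 and hold the 250 bases before the annotated start, 5′ to 3′ on the gene's strand. For both genes the bases just after that start were not found in a GENCODE transcript of the gene, so distances hold for the RefSeq start only. Capitals mark TCACNCCAC (a form of the sterol regulatory element), CCAAT and GGGCGG (the GC box), searched on both strands, and no 2 marked matches overlap or touch. The Sc5d window is chr9:42264301-42264550 on the minus strand and the Hmgcs1 window is chr13:119690101-119690350 on the plus strand.
Sc5d: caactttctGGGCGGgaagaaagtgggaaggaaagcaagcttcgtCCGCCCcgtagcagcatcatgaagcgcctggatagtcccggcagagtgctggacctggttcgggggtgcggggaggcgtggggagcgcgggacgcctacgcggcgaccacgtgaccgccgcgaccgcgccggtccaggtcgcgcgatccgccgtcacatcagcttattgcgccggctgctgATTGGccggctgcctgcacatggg
Hmgcs1: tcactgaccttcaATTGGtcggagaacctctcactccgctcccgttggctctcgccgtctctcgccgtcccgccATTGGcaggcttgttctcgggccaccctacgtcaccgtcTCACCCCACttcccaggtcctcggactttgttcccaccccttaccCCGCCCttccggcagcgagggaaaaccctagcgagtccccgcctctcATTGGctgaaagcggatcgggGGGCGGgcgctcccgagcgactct

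The Hmgcs1 window held 1 match to the sterol regulatory element, which begins 137 bases before the start, with 3 CCAAT and 2 GC box matches. The Sc5d window held no match to TCACNCCAC, the only form of the sterol regulatory element searched, and 1 CCAAT and 2 GC box matches. Of 22 listed enzymes of the pathway, 17 had 1 or more windows, and Hmgcs1 was the only one of them with TCACNCCAC, a string present in a window of 1.23% of the 27025 genes of the RefSeq table and in 1.05% of all 32851 windows of this length. CCAAT was present in windows of 15 of the 17 enzymes against 37.5% of all genes, and in 15 of their 20 windows against 33.9% of all windows. GGGCGG was present in windows of 16 of the 17 enzymes against 35.4% of all genes, and in 17 of the 20 windows against 32.7% of all windows. A match is a run of letters and not a measured binding site. A missing match does not show that a gene lacks a sterol regulatory element. Other forms of it, and bases outside the windows, were not searched. Some of the counted windows lie within transcripts of their own gene, such as those of Tm7sf2 and of the later starts of Dhcr7. No window was at hand for Fdps and the chosen Fdft1 and Sqle.

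Libraries held between 3057979 and 4227129 expected counts. They also differed within each clone size. In 5 libraries (mice 1, 2 and 6 for large clones, mice 3 and 6 for small clones), 7.85% to 11.0% of counts lay on chemoreceptor genes and 1.90% to 8.69% on ribosomal protein genes. In the other 7 these shares were 0.840% to 4.14% and 14.4% to 19.4%. Summed epithelial markers (7 genes, keratins, cadherin and claudins among them) ran from 264 to 8690 CPM in large and from 749 to 8460 CPM in small clones. The lowest sum was in large clones of mouse 6, where the keratin Krt18 alone gave 209.6 CPM. Cldn4 was at 0 in 10 of the 12 libraries, Cdh1 in large clones of mouse 4 and Cldn3 in small clones of mouse 3. The sum therefore does not show each marker in each library. The library of large clones of mouse 4 stood apart. It held 30230 CPM of summed adipocyte markers against at most 1364 CPM in any other library of large clones and 928 CPM in small clones, and all 7 of 7 adipocyte markers were at their highest there. It held 3527 CPM of summed steroidogenic markers against at most 185 CPM in other large clones and 134 CPM in small clones, with 3 of 8 markers at their highest there (Cyp11a1, Hsd3b1 and Star), while Cyp17a1, Nr5a1 and Fshr were at 0 in it.

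Hmgcs1 makes HMG-CoA, the precursor of mevalonate. Its level had a lowest value of 2.06, a median of 23.8 and a highest value of 69.4 CPM in large clones, and of 5.69, 13.02 and 43.4 CPM in small clones. CPM are counts scaled to a common library size, here after TMM normalization. The groups overlapped over most of their range, and large clones held more in 4 of 6 mice. The log2 fold change, large minus small, was 0.72 with a standard error of 0.85 (edgeR quasi-likelihood, adjusted p = 0.9998), and -0.34 when both the chemoreceptor share and mouse were terms of the model. In these pooled cells, more RNA per cell and more cells with the RNA cannot be told apart.

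Idi1 interconverts the pair of isoprenoid building blocks. It had 26 counts in all large clones together, 22 of them in mouse 6, and 0 counts in each of the 6 libraries of small clones. Pooled over libraries the large clones held 1.17 CPM, at least 8.23-fold higher than the 0.142 CPM that 3 counts over the group of small clones would give. Without large clones of mouse 6 the other 5 libraries of large clones held 4 counts in all, at most 1 in each. Pooled, these 5 libraries held 0.233 CPM, so the fold rests mostly on 1 library. Its limit leaves out the spread between libraries. A count of 0 in a single library allows between 0.585 and 1.33 CPM, a range that speaks to counting error alone, because PCR copies were not told apart by molecular tags. Of the 50-base words of Idi1 transcripts, 30.5% also occur in other genes, 21.3% in the processed pseudogene Gm13502, so its few counts are uncertain.

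Fdft1, squalene synthase, joins a pair of farnesyl diphosphate molecules and takes the pathway towards sterols. Its lowest, median and highest levels were 2.55, 12.8 and 48.2 CPM in large clones and 0, 22.2 and 135.7 CPM in small clones. The highest value was in small clones of mouse 5 and the 0 in small clones of mouse 3, so the small clones spanned the whole range of the large clones. The log2 fold change was -1.18 with a standard error of 1.21 (edgeR, adjusted p = 0.9998). Adding the chemoreceptor share to the model turned it to 0.50, and adding mouse as a block besides gave 1.77. It was 3.52 within the 5 libraries with the higher share against -1.35 within the 7 with the lower share. The 3.52 rests on few counts: the small clones among those 5 were those of mice 3 and 6, with 0 and 8 counts of Fdft1. Of its 50-base words 30.7% occur in other genes, 19.9% in the cathepsin gene Ctsb, and the counting may have divided reads between them.

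Sqle, squalene epoxidase, adds the oxygen that later becomes the hydroxyl group of cholesterol. Levels were 5.78, 14.1 and 49.2 CPM (lowest, median, highest) in large clones and 1.74, 17.7 and 76.5 CPM in small clones. Large clones held more in 3 of 6 mice and less in the other 3. The log2 fold change was -0.65 with a standard error of 0.94 (edgeR, adjusted p = 0.9998), 0.30 when mouse was a block and 0.14 without mouse 4.

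Lss, lanosterol synthase, closes the sterol rings. Its lowest, median and highest levels were 2.22, 8.71 and 12.3 CPM in large clones and 1.45, 3.17 and 13.4 CPM in small clones. Large clones held more in 5 of 6 mice, mouse 3 being the exception, yet the groups overlapped and the log2 fold change was 0.51 with a standard error of 0.76 (edgeR, adjusted p = 0.9998). Lss separated the libraries by chemoreceptor share instead of by clone size: the 5 libraries with the higher share held 9.25 to 13.4 CPM and the 7 with the lower share 1.45 to 6.60 CPM, without overlap. Within those 5 libraries the log2 fold change was -0.06, and within the 7 Lss fell below the filter.

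Cyp51, the lanosterol demethylase, was near the limit of these libraries, with 34 counts in all large and 67 in all small clones. It reached 6.18 CPM at most in large clones, in mouse 3, and 10.7 CPM in small clones, in mouse 5, with medians of 1.12 and 0.485 CPM. The 5 libraries with the higher chemoreceptor share held 0 to 0.631 CPM and the 7 with the lower share 0.316 to 10.7 CPM. It lay below the filter on low counts, so no fold change is given.

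Sc5d, the lathosterol desaturase, puts in the double bond beside the one that Dhcr7 then removes, and it is the member chosen on its difference. In large clones of mice 1 to 6 it stood at 93.6, 419.1, 108.8, 1599, 79.5 and 71.8 CPM, and in small clones of the same mice at 17.1, 54.5, 27.8, 19.7, 33.9 and 102.6 CPM. The 5 mice that meet the choice include mouse 5 with 79.5 against 33.9 CPM, and mouse 6 falls outside it with 71.8 against 102.6 CPM. The small clones of mouse 6 lay above 3 of the 6 libraries of large clones, and the other 5 libraries of small clones lay below all libraries of large clones. Means were 395 ± 604.5 CPM (SD, n = 6) and 42.6 ± 32.3 CPM (SD, n = 6), and the log2 fold change was 3.21 with a standard error of 0.90. That standard error comes from the contrast on which Sc5d was chosen, so it gives no test of the difference. A single library carried much of the size of the fold change. Without large clones of mouse 4 the mean of large clones was 154.6 ± 148.6 CPM (SD, n = 5) and the log2 fold change 1.86, without both libraries of mouse 4 it was 1.72, and with mouse as a block 2.26. Split by chemoreceptor share, it was 4.17 within the 7 lower libraries and 1.56 within the 5 higher ones. The 7 lower libraries include large clones of mouse 4, at 1599 CPM, and the split was not run without that library. Sc5d shares 0.422% of its 50-base words with other genes. In the coordinates of the table, whose build is not named, the gene lies on chromosome 9 from 42162891 to 42175552 on the minus strand.

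Dhcr7, the final reductase of one of the routes to cholesterol, acts on the product of Sc5d. Lowest, median and highest levels were 1.18, 3.85 and 61.3 CPM in large clones and 2.48, 7.24 and 19.9 CPM in small clones. Large clones held less in 4 of 6 mice, and the highest value of all was in large clones of mouse 4. The log2 fold change was 0.69 with a standard error of 1.03 (edgeR, adjusted p = 0.9998). Without large clones of mouse 4 it was -0.74, and with mouse as a block -0.73. So the enzyme next to Sc5d had its peak in the same library, while in mouse 2, the next highest for Sc5d at 419.1 CPM, Dhcr7 stood at 1.18 CPM in its large and at 12.9 CPM in its small clones.

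**Figure D1:**
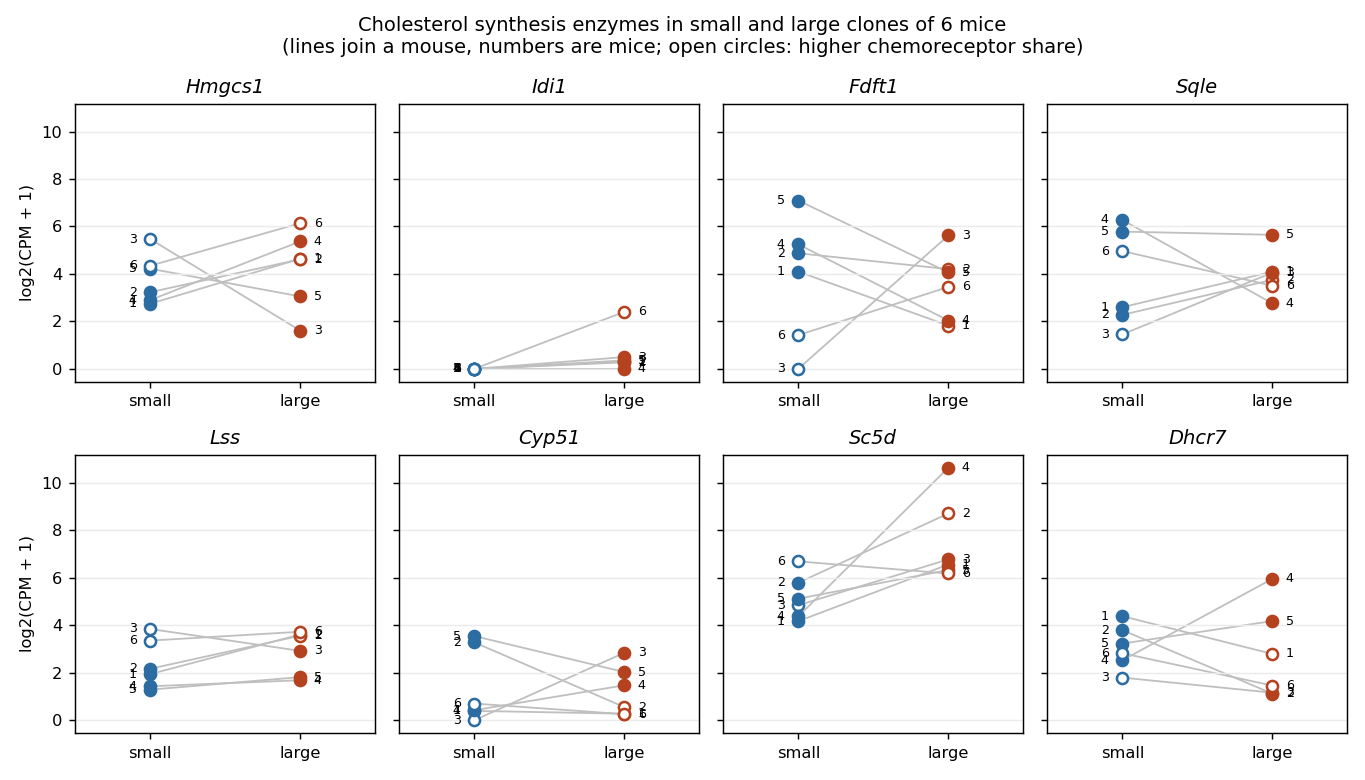
Level of the 8 chosen enzymes as log2(CPM + 1) in small (blue) and large (red) clones, 1 point per library, with lines joining the libraries of a mouse, numbers naming the mouse and open circles marking the 5 libraries with the higher chemoreceptor share. Sc5d rises along the line in 5 of 6 mice, by choice, and falls in mouse 6. Lss also rises in 5 of 6 mice and separates open from filled circles, Idi1 is at 0 in all small clones, and the lines of Hmgcs1, Fdft1, Sqle, Cyp51 and Dhcr7 rise in some mice and fall in others.

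The summed level of the other 7 chosen enzymes overlapped between clone sizes. It was 60.3 to 114.6 CPM in large clones, with a mean of 87.5 ± 22.2 CPM (SD, n = 6), and 49.98 to 228.1 CPM in small clones, with a mean of 99.8 ± 68.4 CPM (SD, n = 6). With Sc5d included the sum had a lowest value of 153.8, a median of 184.6 and a highest value of 1714 CPM in large clones, and of 67.1, 133.4 and 261.9 CPM in small clones. The means differed by 340.4 CPM, and by 95.0 CPM without mouse 4. Sc5d made up 15.2% to 75.8% of the CPM of all 22 listed enzymes in large clones, with a median of 22.2%, and 3.64% to 23.7% in small clones, with a median of 7.99%. Scaled by transcript length, its share was 6.93% to 60.1% in large clones, with a median of 10.4%, and 1.62% to 10.3% in small clones, with a median of 3.32%. Because Sc5d was chosen for higher counts in large clones, the sum with Sc5d and its shares restate that choice.

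With the wide spread between these libraries, the absence of a call does not show that levels were equal. Across all genes edgeR called none at an adjusted p under 0.05 (0% of 10848), and 275 had an unadjusted p under 0.05 (2.54%). Of the 5 tested members other than Sc5d, and of the 17 tested enzymes of the list other than Sc5d, 0 passed and 0 had an unadjusted p under 0.05. DESeq2 called 5 genes of the 10123 it gave an adjusted p (0.0494%) and, with mouse as a block, 42 of 10848 (0.387%), with 0 of the 17 enzymes among either. The lowest adjusted p of an enzyme was 0.9998 in edgeR, 0.9985 in DESeq2 and 0.2161 in DESeq2 with the block, where Mvd alone had an unadjusted p under 0.05. Counting mice instead, 12.2% of tested genes were higher in large clones in at least 5 of 6 mice, and Lss was the 1 of the 17 enzymes, and the 1 of the 5 members, to be so. Lower in at least 5 of 6 mice were 13.5% of tested genes and 3 of the 17 enzymes, namely Acat2, Mvd and Fdps. Read against those shares, neither count is a result about the enzymes.

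The enzymes of the list that were not chosen gave no call either. Of the 17 tested enzymes other than Sc5d, 9 had a positive and 8 a negative log2 fold change, with a median of 0.09 against 0.06 over all tested genes. Without large clones of mouse 4 the split was 7 and 10, with a median of -0.37 against -0.002 over all genes. At the head of the pathway Acat2 had 0.80 with a standard error of 1.41, and -1.62 without that library. The mevalonate kinases and decarboxylase gave 0.47 for Mvk, -0.97 for Pmvk and -0.62 for Mvd. The isoprenoid synthase Fdps had -0.67 with a standard error of 0.77. Among the late enzymes the sterol reductases Tm7sf2 and Lbr had -0.19 and 0.98, the methyl oxidase Msmo1 0.13, the scaffold protein Erg28 -0.05 and the isomerase Ebp 0.64, none of which passed the test. Nsdhl had 4 counts and Hsd17b7 11 counts over all 12 libraries, too few to test.

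**Figure D2:**
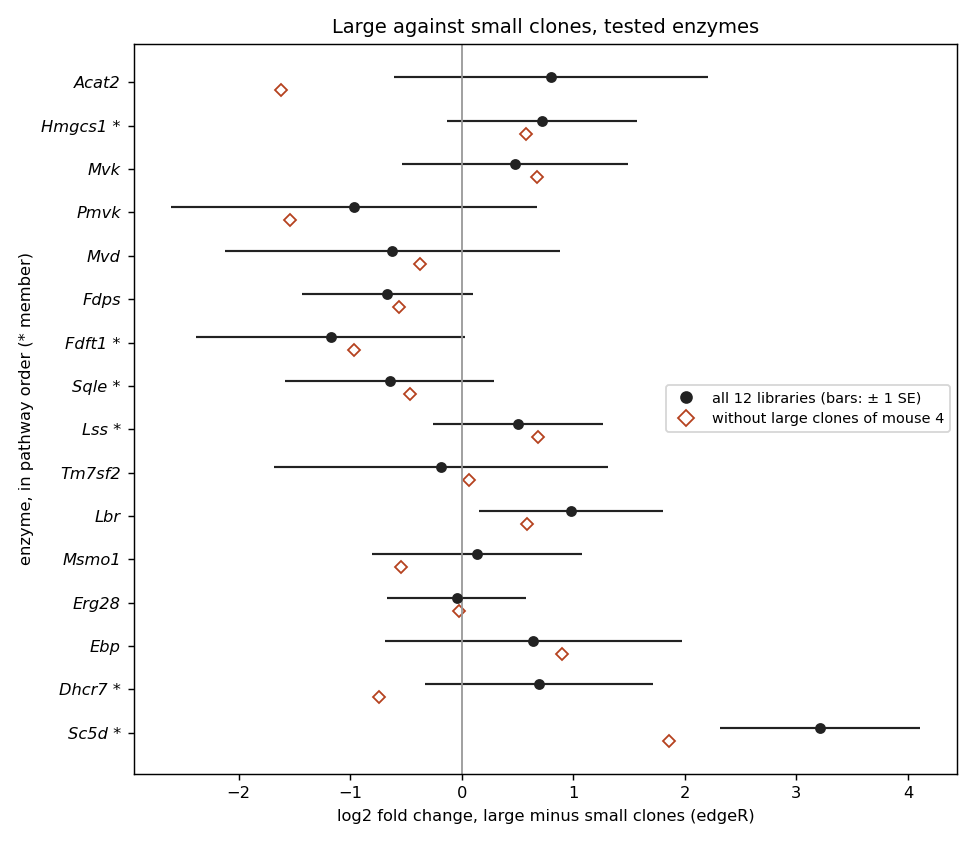
Log2 fold change of 16 of the 18 tested enzymes of the list in pathway order, large minus small clones, from edgeR, with bars of 1 standard error for all 12 libraries and open diamonds for the fit without large clones of mouse 4. Stars mark the chosen enzymes. Sc5d sits at 3.21 and 1.86, by choice, and its bar gives no test. The others lie between -1.18 and 0.98 with all libraries, and Acat2, Tm7sf2, Msmo1 and Dhcr7 change sign without large clones of mouse 4.

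Levels of single genes were ranked per length, as CPM per kilobase of the longest GENCODE transcript. Over 12 libraries the median level per kilobase was 15.8 for Sc5d, 5.34 for Hmgcs1, 5.10 for Sqle, 4.31 for Fdft1, 2.14 for Dhcr7, 1.08 for Lss, 0.140 for Cyp51 and 0 for Idi1. Sc5d was above Hmgcs1 in 10 of 12 libraries. The other neighbours in this order were less clearly apart: Hmgcs1 was above Sqle in 6 of 12, Sqle above Fdft1 in 7, Fdft1 above Dhcr7 in 6, Dhcr7 above Lss in 7, Lss above Cyp51 in 8 and Cyp51 above Idi1 in 9. Among all 22 listed enzymes only Fdps, at 19.5, and Erg28, at 18.4 CPM per kilobase, had higher medians than Sc5d.

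**Figure D3:**
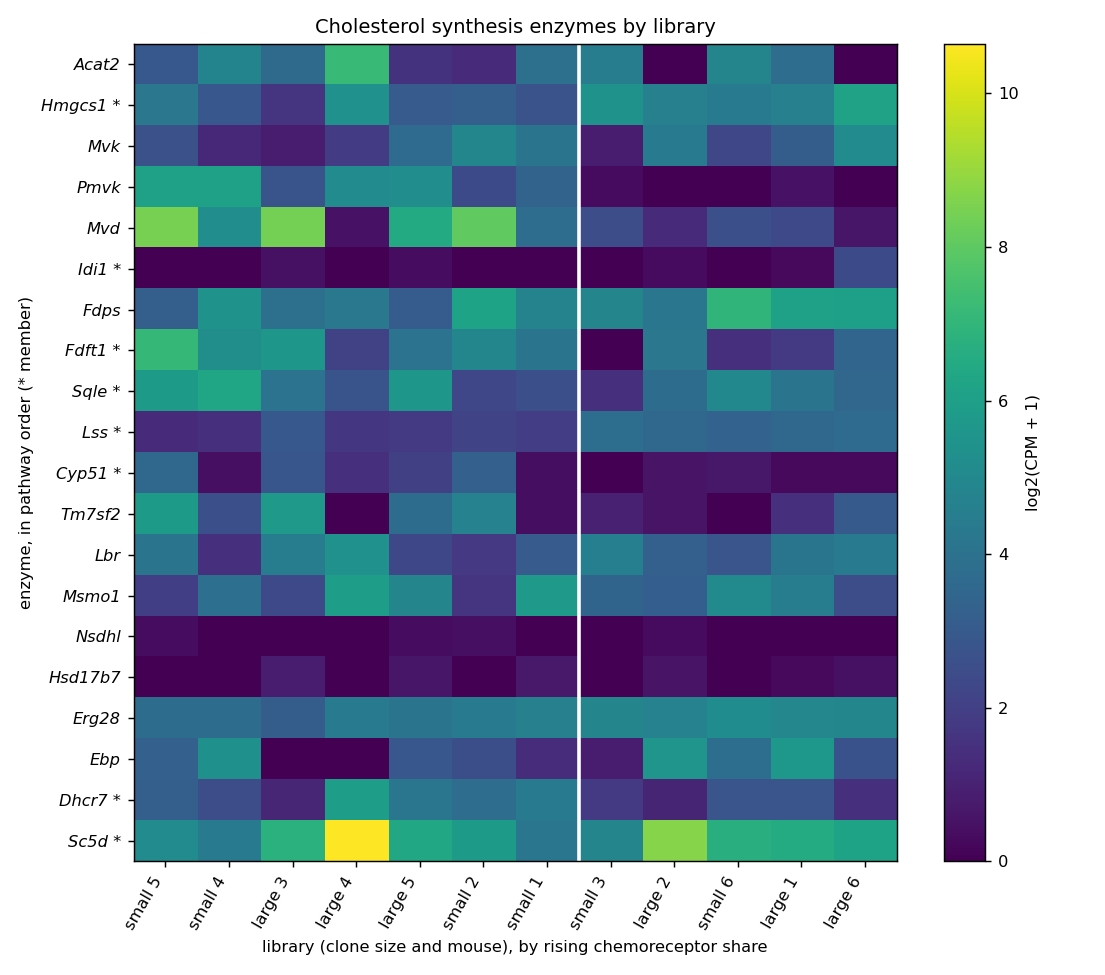
Level of 20 of the 22 listed enzymes as log2(CPM + 1), with 1 column per library ordered by rising chemoreceptor share and a white line between the 7 libraries with the lower and the 5 with the higher share. Stars mark the chosen enzymes. Lss and Erg28 are brighter to the right of the line and Pmvk brighter to its left, while Sc5d is brightest in large clones of mouse 4 and then mouse 2.

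The chosen enzymes did not share 1 direction from library to library. Pearson's r of log2(CPM + 1) over the 12 libraries, in which all genes of a library share its depth and composition, was positive for 5 of the 15 pairs of tested members, with a median of -0.07 and a range from -0.67 for Lss with Dhcr7 to 0.50 for Fdft1 with Sqle. Over the 153 pairs of tested enzymes of the list 69 were positive and the median was -0.06, beside a median of 0.01 over all pairs of tested genes. Sc5d had r from -0.45 with Mvd to 0.46 with Lbr among the 17 others. Several enzymes followed the chemoreceptor share in opposite directions. Its r over 12 libraries was 0.88 for Lss, 0.86 for Erg28, 0.63 for Fdps and 0.62 for Hmgcs1, and it was -0.90 for Pmvk, -0.69 for Mvd and -0.66 for Fdft1. For Sc5d it was 0.09. Pmvk, for example, held 0 to 0.424 CPM in the 5 libraries with the higher share and 4.20 to 68.0 CPM in the 7 with the lower share, without overlap.

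**Figure D4:**
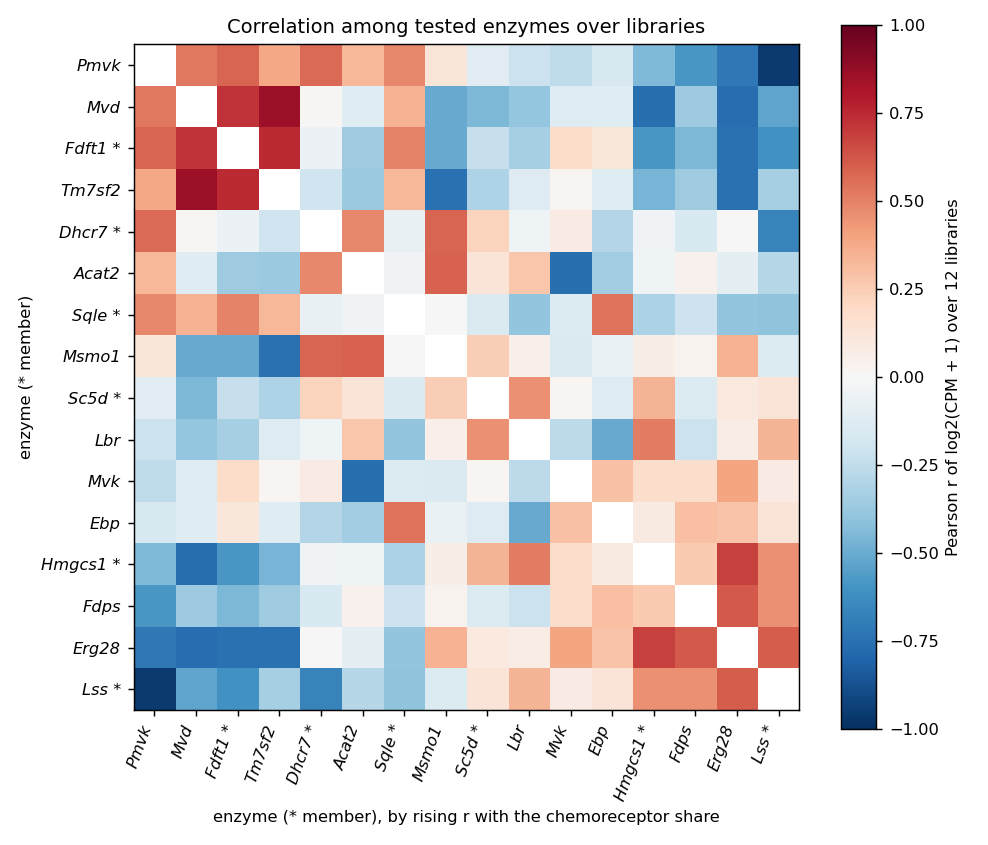
Pearson's r of log2(CPM + 1) over 12 libraries for each pair of 16 of the 18 tested enzymes, ordered by rising r with the chemoreceptor share, with stars on the chosen enzymes. Enzymes at the same end of the order are mostly positive with each other (red) and negative with the other end (blue, down to -0.96 for Pmvk with Lss), and the line of Sc5d stays between -0.45 and 0.46.

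By the same measure the tested genes nearest to Sc5d over 12 libraries were R3hdm2 (r = 0.92), the nuclear pore gene Tpr (0.92), the centrosomal gene Cep135 (0.89), Lman2l (0.89), a lectin-like protein of the secretory pathway, and Malt1 (0.88). Without large clones of mouse 4 these values were 0.86, 0.82, 0.73, 0.79 and 0.75. None is an enzyme of cholesterol synthesis. R3hdm2, for instance, stood at 44.4 CPM in large clones of mouse 4 and 13.7 CPM in large clones of mouse 2, its highest libraries as they were those of Sc5d. The mean of the other 5 tested members was nearest to Anapc15 (0.90), Fkbp1a (0.90) and Herpud1 (0.85). These genes were picked as the highest of 10848, so the values describe the choice.

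Genes that regulate the pathway, or take cholesterol further, gave no call. Srebf2, which encodes SREBP2, had a lowest level of 19.7, a median of 40.3 and a highest level of 462 CPM in large clones, the highest in mouse 4, and 15.1, 20.3 and 133 CPM in small clones. Its log2 fold change was 0.98 with a standard error of 0.92. Srebf1 was listed at 0 in all 12 libraries. Mbtps2, a protease that releases the active factor, had 0.19. Of 10 genes of SREBP control 7 were tested, 5 of them positive with a median of 0.19, and 0 passed either threshold. Of 17 genes of sterol uptake, transport and efflux 15 were tested, 10 of them positive with a median of 0.21, and 0 passed. Among these Npc2, which carries cholesterol out of lysosomes, had 0.36, Apoe 1.36 and Soat1, which esterifies cholesterol for storage, 1.09. Of 10 genes of fatty acid synthesis 9 were tested, 8 of them positive with a median of 0.35, and 0 passed, with 0.99 for Fasn, 0.17 for Scd2 and 0.06 for Acaca. Of 8 genes of the branches from farnesyl diphosphate 5 were tested, 4 of them positive with a median of 0.41, and 0 passed. Over all tested genes 5775 of 10848 were positive, with a median of 0.06. The lists are small and were not tested as sets. Large clones of mouse 4 were again the highest library for Apoe (1201 CPM), Soat1 (676.5 CPM) and Fasn (6122 CPM). Without them the mean of large clones lay below that of small clones for each of these and for Srebf2, at 93.8 against 108.2 CPM for Apoe, 43.1 against 69.8 CPM for Soat1, 438 against 697 CPM for Fasn and 35.2 against 53.8 CPM for Srebf2. The same held for Scd2 (108.7 against 119.1 CPM) and Acaca (83.2 against 106.3 CPM), and not for Npc2 and Mbtps2. Large clones held more Apoe and Fasn in 2 mice, more Soat1 in 4 and more Srebf2 in 5 of the 6.

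The level of Sc5d moved with the markers of other cell types through that same library. Its r with the summed steroidogenic markers, both as log2, was 0.71 over 12 libraries and 0.23 without large clones of mouse 4. With the adipocyte markers it was 0.60 and -0.01. With the epithelial markers it was -0.16 and -0.38, with the fibroblast markers 0.21 and -0.64, and with the immune markers -0.21 and 0.55. Over the other 5 lists (secretory, ciliated, smooth muscle, endothelial and red blood cells) it ran from -0.29 to 0.50 with all libraries and from -0.47 to 0.27 without that one. Large clones of mouse 4 were also the highest library for summed fibroblast markers, at 521 CPM against at most 179 CPM elsewhere. Only 2 of 7 fibroblast markers were at their highest there, Dcn (280.3 CPM) and Col3a1 (215 CPM), while Lum and Postn were at 0. Summed red blood cell markers stood at 5928 against at most 2467 CPM, with 4 of 5 markers at their highest there. Cyp11a1, which starts steroid synthesis from cholesterol, stood at 2591 CPM in large clones of mouse 4, and Cfd, an adipocyte product, at 23320 CPM. In large clones of mouse 2, where Sc5d was at 419.1 CPM, the summed steroidogenic and adipocyte markers were 65.7 and 86.0 CPM, inside the range of the small clones. Single markers differed from the sums there. Adipoq stood at 30.4 CPM against at most 7.53 CPM in small clones, and Lhcgr at 45.7 against at most 34.5 CPM. Plin4, Cidec, Lep, Retn, Cfd, Hsd3b1, Cyp17a1 and Fshr were at 0 in it. The part of these other cells in the level of Sc5d in large clones of mouse 4 was not tested.

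**Figure D5:**
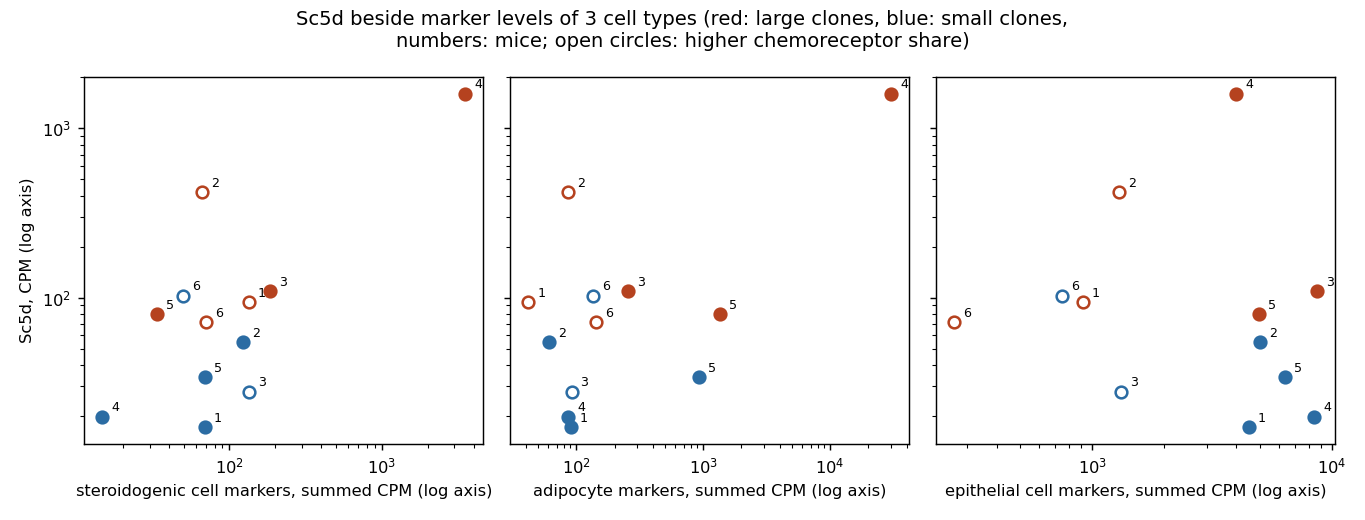
Sc5d in CPM against the summed CPM of steroidogenic (left), adipocyte (middle) and epithelial (right) markers, all on log axes, with 1 point per library, red for large and blue for small clones, numbers naming the mouse and open circles marking the higher chemoreceptor share. Large clones of mouse 4 lie alone at the upper right of the steroidogenic and adipocyte plots, at 3527 and 30230 CPM of markers. Large clones of mouse 2 have the next highest Sc5d, with sums of 65.7 and 86.0 CPM in these plots.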

How the data were processed

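Poly(A) RNA of 12 libraries was measured, and the values are expected counts per gene in 1 table that the authors deposited, made with RSEM and Bowtie2 on GRCm38 per the submitters' processing notes, with no versions given. RSEM shares reads that map to several transcripts among them, so 22.7% of entries were not whole, and the values were rounded here. Only 3.00% of 35491 genes kept the chromosome and start of GENCODE M21 on GRCm38, so coordinates taken from the table are of an unnamed build. The 1 row without a symbol held 0.133% of counts and was kept by its identifier.

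Large and small clones were compared by edgeR 4.0.16 (quasi-likelihood test, TMM, filterByExpr by clone size, Benjamini-Hochberg at 0.05 over 10848 genes holding 97.2% of counts). The biological coefficient of variation was 114.5%. Standard errors in edgeR are the absolute log2 fold change divided by the square root of the F statistic of its test. The scripts were tested on simulated data: edgeR recovered large changes at a small spread but called none of them at a spread like that of these libraries, where DESeq2 also made false calls. DESeq2 1.42.0, other filters and size factors, the chemoreceptor share as a covariate or a split at 5%, mouse as a block and the omission of each mouse and library were alternatives. The numbers pair libraries because both come from 1 mouse. Deviations from the group means correlated at -0.02, -0.01, -0.38, 0.28, 0.52 and 0.64 for mice 1 to 6. Mice 4, 5 and 6 had both libraries on the same side of the split by chemoreceptor share. Mice 1, 2 and 3 had 1 library on each side. Likeness within a mouse and likeness in that share cannot be told apart by these values. Correlations and figures use log2(CPM + 1) with TMM-scaled library sizes, and lengths and shared 50-base words come from GENCODE M21 transcripts.

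The members and gene lists were chosen with earlier results of these data known. Named were the 8 members, the other enzymes of the list, the 3 genes with the highest mean CPM in each list of SREBP control, sterol uptake and fatty acid synthesis, any gene of those lists with a p under 0.05, the 5 tested genes with the highest r with Sc5d and the 3 with the highest r with the mean of the other tested members. Some genes that this rule takes are not reported here by name. Marker genes were named besides, where large clones of mouse 4 stood apart. Of the marker lists not described in the report, summed levels in large and small clones ran from 651 to 3743 and 590 to 8250 CPM for secretory cells, 70.2 to 2004 and 113 to 3588 CPM for ciliated cells, 16.0 to 521 and 37.1 to 179 CPM for fibroblasts, 4.10 to 73.3 and 1.68 to 215 CPM for smooth muscle, 0.444 to 266 and 3.50 to 121 CPM for immune cells, 169 to 466 and 108.5 to 273 CPM for endothelial cells and 200.4 to 5928 and 33.0 to 2137 CPM for red blood cells.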

Additional observations from a re-analysis of the deposited data

Results flagged for a closer look

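Each of the 22 listed enzymes, the genes nearest to Sc5d and to the other members, and 4 measures of the libraries were searched, within each clone size, for a library whose gap to its neighbour passed Dixon's critical value for 6 values, as a share of the range of its group on the log2(CPM + 1) scale. That scale was chosen after CPM values had been seen, since CPM are skewed. Of 68 groups searched 2 had such a library, where chance gives about 3.4. Idi1 in large clones of mouse 6 had a gap of 0.793 of the range, at 2.40 against 0 to 0.50 in the other large clones, and it rests on 22 counts. Hsd17b7, a late reductase of the pathway, had a gap of 1 in small clones of mouse 1, at 0.71 against 0 in all other small clones, and it rests on 2 counts.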

How the results depend on the processing

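No gene of the cholesterol list other than Sc5d was called under any of the 10 alternatives or the 18 omissions of a mouse or a library. Sc5d was part of these fits, but its p is not given, because it was chosen on this contrast. Genes called over the whole table were 0 in edgeR, 5 in DESeq2 and 42 in DESeq2 with mouse as a replicate block, and 0 in each omission. Genes at an unadjusted p under 0.05 numbered 275, against 2880 with no filter on low counts, 535 in DESeq2 and 1134 with its replicate block, 524 with the chemoreceptor share as covariate, 486 with the replicate block besides, 560 within the 7 libraries with the lower and 685 within the 5 with the higher share, and 180 to 492 over the omissions (180 without mouse 4, 492 without mouse 3). With the replicate block in edgeR the log2 fold change turned to 0.30 for Sqle and -0.73 for Dhcr7, and in DESeq2 to 0.28 and -0.76. With the covariate and the block it was -0.34 for Hmgcs1, 1.77 for Fdft1, 0.41 for Sqle and -0.53 for Dhcr7, with the covariate alone 0.50 for Fdft1. Within the 5 libraries with the higher share it was 3.52 for Fdft1, -0.065 for Lss and -0.59 for Dhcr7; Lss could not be fitted within the other 7. Over the omissions it ran from 0.16 to 1.51 for Hmgcs1, -2.17 to -0.06 for Fdft1, -1.28 to 0.14 for Sqle, 0.19 to 1.05 for Lss, -0.88 to 1.18 for Dhcr7 and 1.72 to 3.87 for Sc5d. The median of the 17 enzymes, a summary added after the data were seen, was 0.09, and -0.040 and -0.046 with the replicate block in edgeR and DESeq2, -0.13 with covariate and block, -0.31 and -0.23 within the lower and higher share, and -0.37 to 0.31 over the omissions. Of the 12 tested enzymes that were not chosen, 11 changed sign under at least 1 of the 28 alternatives, of which 18 are omissions. The causes were not tested. Sc5d kept its direction under the alternatives run. So did the summed level of the 8 members, of which Sc5d is on average the largest term. Neither is a sign of stability, because Sc5d was chosen on that direction. Idi1, Cyp51, Nsdhl and Hsd17b7 had too few counts to pass the filter.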
